A study of Mus musculus with 8 samples.

Results

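The Notch pathway was followed in mouse embryonic fibroblasts (MEFs) through 10 genes in 3 roles. These were the receptors Notch1, Notch2 and Notch3, the ligands Jag1, Jag2 and Dll1, and the transcriptional targets Hes1, Hey1, Hey2 and Heyl. They were chosen by the gene name that the scanner files give each probe, which took 10 of 27745 names and 15 of the 41174 gene probes on the array. The cells came from C57BL/6J embryos of 3 litters, numbered 112, 116 and 121, and received no treatment. In each litter, 1 culture labelled Lats2-/- was set against 1 culture labelled Lats2+/+, so that genotype cannot be told apart within a litter from any other difference between those 2 cultures. The embryos' age and the deleted part of the Lats2 gene are not given in the sources used here. RNA of both cultures was hybridised together on 2-colour arrays, of which litter 121 had 4 and the other litters 2 each, with the dyes swapped in each pair. Arrays of a litter carried the same 2 extracts, which makes the litter the replicate (n = 3).

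Notch is a cell-to-cell signal. A ligand of the Jagged or Delta-like family on one cell binds a Notch receptor on its neighbour, the receptor is cut by an ADAM protease and then by gamma-secretase, and the freed intracellular domain joins RBPJ and a Mastermind protein in the nucleus to activate genes of the HES and HEY families of repressors. The pathway is known in mesenchymal cells for its part in smooth muscle and pericyte identity and in holding progenitors back from differentiation. LATS2, the kinase whose gene the labels give as knocked out, belongs to the Hippo pathway, in which it phosphorylates the co-activators YAP and TAZ. The comparison asks how the members of the Notch pathway stood in Lats2-/- cells beside their Lats2+/+ littermates.

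Values below are log2 ratios of Lats2-/- over Lats2+/+ within an array, averaged per litter, or log2 signals of a single extract. Testing was limited to the 22642 probes, called kept here, whose signal was well above background in 2 or more of the 3 extracts with one genotype. Of the members, 10 of 15 probes and 6 of 10 genes passed, namely all 3 receptors, the ligand Jag1 and the targets Hes1 and Hey1. Jag2, Dll1, Hey2 and Heyl did not. Where a gene had several kept probes, the brightest stands for it, and for the members the others are given beside it. Between 52.9% and 61.3% of gene probes were above background on an array, and ratios of arrays from the same litter correlated at 0.917 to 0.990 across kept probes. One of the 4 Lats2 probes was lower in the Lats2-/- extract of every litter, with log2 ratios of -1.33, -1.05 and -0.56. The other 3 were lower in litters 112 and 116 and higher in litter 121, by 0.80 to 1.17 there. Whether those 3 lie outside the deleted part is not known, so they check neither label of litter 121. The study also blotted Lats2 protein in knockout and wild type MEFs to check the genotype, without naming the litter of the cultures shown.

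Promoter sequences are shown for the 2 receptors and the ligand with the largest ratios in a single litter, and for Hey2, the target for which a window was listed. They are RefSeq windows of GRCm38, from 250 bases before to 50 bases after the annotated start, written 5′ to 3′ on the strand of the gene. Such a window was listed for 7 of the 10 genes, not for Hes1, Hey1 or Heyl. Capitals mark 3 short motifs searched on both strands: TGGGAA, the core bound by RBPJ; GGAATG, bound by the TEAD partners of YAP; and CACGTG, an E box of the kind HES and HEY proteins can bind. TGGGAA and GGAATG can overlap by sharing GGAA.
Notch1, chr2:26503773-26504072, minus strand: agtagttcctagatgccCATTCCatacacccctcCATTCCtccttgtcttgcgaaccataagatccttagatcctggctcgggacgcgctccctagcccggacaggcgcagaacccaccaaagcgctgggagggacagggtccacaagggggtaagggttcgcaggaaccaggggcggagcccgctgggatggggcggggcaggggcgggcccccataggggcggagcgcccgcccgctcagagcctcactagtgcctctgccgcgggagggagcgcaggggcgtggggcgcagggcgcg
Notch3, chr17:32166841-32167140, minus strand: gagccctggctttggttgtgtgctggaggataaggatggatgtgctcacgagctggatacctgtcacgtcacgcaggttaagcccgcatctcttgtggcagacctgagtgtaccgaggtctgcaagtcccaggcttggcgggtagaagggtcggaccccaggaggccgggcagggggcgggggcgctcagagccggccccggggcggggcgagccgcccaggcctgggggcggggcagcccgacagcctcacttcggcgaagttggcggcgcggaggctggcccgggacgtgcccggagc
Jag1, chr2:137116471-137116770, minus strand: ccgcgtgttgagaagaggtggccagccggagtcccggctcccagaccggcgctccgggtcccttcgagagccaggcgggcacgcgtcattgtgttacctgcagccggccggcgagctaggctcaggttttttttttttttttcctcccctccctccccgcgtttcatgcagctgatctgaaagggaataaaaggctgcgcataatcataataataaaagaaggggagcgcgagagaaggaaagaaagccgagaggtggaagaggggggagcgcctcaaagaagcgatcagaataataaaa
Hey2, chr10:30842734-30843033, minus strand: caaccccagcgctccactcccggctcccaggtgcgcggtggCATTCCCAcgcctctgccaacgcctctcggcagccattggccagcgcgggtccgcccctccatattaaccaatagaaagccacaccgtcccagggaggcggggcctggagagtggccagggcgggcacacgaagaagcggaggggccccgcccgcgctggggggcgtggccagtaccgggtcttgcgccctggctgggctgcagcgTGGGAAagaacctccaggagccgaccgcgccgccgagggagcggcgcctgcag

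The RBPJ letters occurred in the windows of 1 of the 7 genes, Hey2, which had them at -207 on the reverse strand and at -3 on the forward strand, counted from the annotated start to the first letter. Of all 32851 promoter windows, 25.6% held them. The TEAD letters occurred in 2 of the 7 genes. Notch1 had them at -233 and -216, and Hey2 at -209, where they overlapped the RBPJ letters. Among all windows 14.7% held them. The E box was found in 0 of the 7 genes, against 7.15% of all windows. A match describes letters in the window and not a bound site.

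Among the receptors, the Notch3 ratio was above 0 in all 3 litters, while Notch1 and Notch2 changed sign between litters. Notch3, a receptor known for its role in vascular smooth muscle, had a log2 signal of 8.67 in the Lats2-/- extract and 8.44 in the Lats2+/+ extract of litter 112. The same pair stood at 8.02 and 7.25 in litter 116 and at 10.89 and 10.76 in litter 121. The Lats2-/- extract was thus the higher one in each litter, though the litters themselves lay further apart than the genotypes. Log2 ratios of 0.23, 0.77 and 0.13 gave a mean of 0.38 ± 0.35 (SD, n = 3), with an adjusted p of 0.727 by limma. All 8 arrays had a ratio above 0. The probe lies at chr17:31849609-31849668 on mm8, the build of the file headers.

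Notch1, the receptor best known from T cell development, had its most repeated measurement in a probe with 10 spots per array at chr2:26281261-26281319 on mm8. Its signals were 7.04 in the Lats2-/- and 7.29 in the Lats2+/+ extract of litter 112, 7.78 and 7.24 in litter 116, and 8.16 and 7.12 in litter 121. The 3 Lats2+/+ extracts were within 0.17 of each other on the log2 scale, and the spread lay among the Lats2-/- extracts, which covered 1.12. The ratios were -0.25, 0.53 and 1.04, a mean of 0.44 ± 0.65 (SD, n = 3; limma adjusted p = 0.768). Across the 10 spots of an array the ratio had an SD of 0.06 to 0.11, far below the difference between litters. A second probe, which adjoins the first by 1 shared base, gave -0.27, 0.49 and 0.98. Without litter 112 the mean was 0.79 with an unadjusted limma p of 0.0357, and without litter 121 it was 0.14, so that both the size and the p of Notch1 turned on single litters.

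Notch2, the other receptor widely expressed in mesenchyme, was measured by 3 kept probes. The brightest had signals of 10.67 and 10.62 in the Lats2-/- and Lats2+/+ extracts of litter 112, 11.39 and 11.64 in litter 116, and 11.85 and 11.37 in litter 121. Its ratios of 0.05, -0.25 and 0.48 averaged 0.09 ± 0.37 (SD, n = 3; limma adjusted p = 0.929). The limma 95% interval of that mean ran from -0.41 to 0.60. The second probe gave -0.10, 0.17 and 0.25 and the third 0.00, -0.09 and 0.06. In litter 116 the 3 probes of Notch2 therefore differed in sign, and the sign of its mean changed to -0.10 without litter 121.

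**Figure D1:**
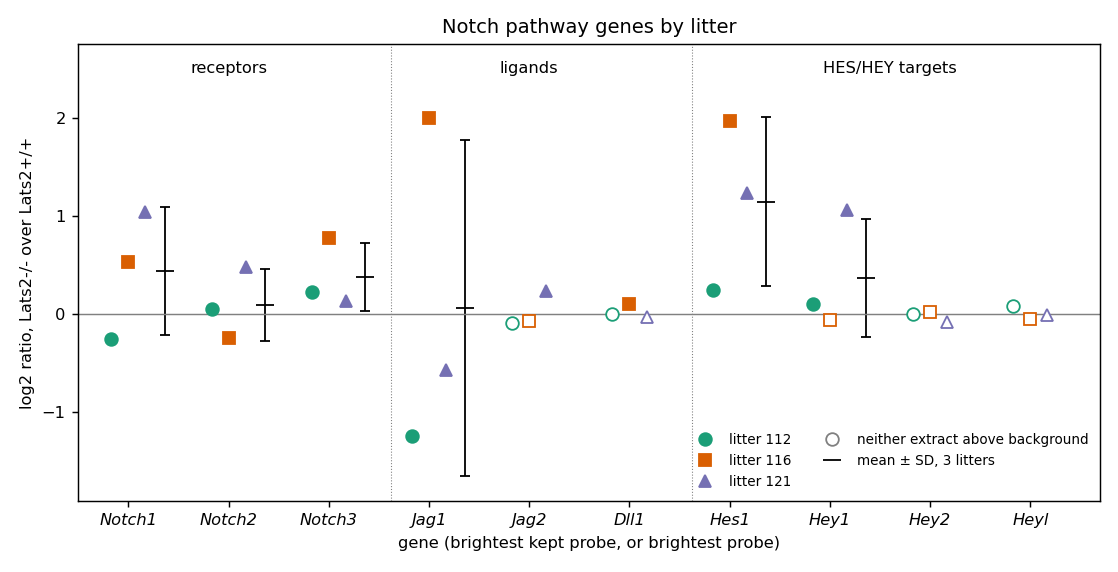
Log2 ratio of Lats2-/- over Lats2+/+ (y axis) for the 10 genes by role (x axis), one symbol per litter, with the mean and SD of the 3 litters for genes with a kept probe; open symbols mark litters in which neither extract was above background. Hes1 and Notch3 lie above 0 in every litter, Jag1 lies at -1.24, 1.997 and -0.57, and the open symbols sit near 0.

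Of the ligands, only Jag1 passed the filter, and it moved in opposite directions between litters. Jag1, the Jagged ligand that presents to Notch on neighbouring cells, had a log2 signal of 9.32 in the Lats2-/- extract of litter 112 against 10.56 in its Lats2+/+ littermate. In litter 116 the order was turned, with 8.62 against 6.63. In litter 121 the Lats2-/- extract was again the lower one, with 10.75 against 11.32. The lowest of the 6 extracts was the Lats2+/+ extract of litter 116, and the Lats2+/+ extracts alone covered 4.69 on the log2 scale. That range was wider than those of 99.8% of kept probes, whose median was 0.47. The Jag1 ratios of -1.24, 1.997 and -0.57 correspond to a 2.36-fold lower, a 3.99-fold higher and a 1.48-fold lower signal. The ratio in litter 116 depends on the background correction, and was 2.52 with a smaller offset of 16 and 3.40 with the scanner's own processed signals. The mean of -1.24, 1.997 and -0.57 was 0.06 ± 1.71 (SD, n = 3), with a limma adjusted p of 0.990. Its 95% interval ran from -1.97 to 2.09, so these 3 litters bound the mean of Jag1 only loosely.

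A second Jag1 probe, at chr2:136774647-136774706 against chr2:136773138-136773197 for the first (mm8), was dim. It gave -0.40 and -0.37 in litters 112 and 121 and 0.10 in litter 116, where neither extract was above background with it. Both probes thus had Jag1 lower in the Lats2-/- extracts of litters 112 and 121. Without litter 116 the mean of the bright probe was -0.90 with an unadjusted limma p of 0.0337, without litter 112 it was 0.71, and without litter 121 it was 0.38.

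Jag2, the second Jagged ligand, and Dll1, a Delta-like ligand needed for segmentation of the embryo, were near background. Jag2 was above background in litter 121 only, on 3 of 4 arrays in the Lats2-/- channel and on 1 of 4 in the Lats2+/+ channel, and its ratios were -0.09, -0.07 and 0.23. Dll1, which has 10 spots per array, was above background only in litter 116, in both extracts on both arrays, with a ratio of 0.10 there. For both ligands the ratios of the remaining litters describe signals at background. The scanner software's own processed signals, which are not offset upwards as the values above were, put the Jag2 ratio of litter 121 at 1.75 and the Dll1 ratio of litter 116 at 0.39. Neither gene entered the test.

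Hes1 was the member with the largest mean ratio, and the 1 of 6 kept members with an unadjusted limma p below 0.05. HES1 is the repressor most commonly read as the output of Notch. Its log2 signal was 8.62 in the Lats2-/- and 8.38 in the Lats2+/+ extract of litter 112, 8.20 and 6.24 in litter 116, and 8.93 and 7.69 in litter 121. The 3 Lats2-/- extracts lay within 0.73 of each other, while the Lats2+/+ extracts covered 2.15, and litter 112's Lats2+/+ extract was higher than litter 116's Lats2-/- extract. Over all 6 extracts the genotypes therefore overlapped, and the difference stands within litters. The ratios of 0.24, 1.96 and 1.23 correspond to 1.18-fold, 3.90-fold and 2.35-fold higher signals. In litter 116 the Lats2+/+ extract was not well above background on either array, so the difference there is at least 3.90-fold. The mean was 1.15 ± 0.86 (SD, n = 3), with a 95% interval from 0.09 to 2.20, an unadjusted limma p of 0.0392 and an adjusted one of 0.711. An exact sign-flip permutation test over 3 litters cannot go below p = 0.25, two-sided, the value it gave for Hes1 and for Notch3.

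All 8 arrays had Hes1 higher in the Lats2-/- channel, from 0.12 and 0.37 for the pair of litter 112 to 1.90 and 2.03 for that of litter 116. The difference between the dye orientations was -0.25, -0.13 and -0.26 in litters 112, 116 and 121, which is as large as the ratio itself in litter 112 and small beside it in the others. The probe spans 296 bases of genome at chr16:29985644-29985939 (mm8). Leaving out litter 116 gave a mean of 0.74 (unadjusted limma p of 0.108) and leaving out litter 121 gave 1.103 (unadjusted limma p of 0.119). Without litter 112, the litter of the smallest ratio, it was 1.60 (unadjusted limma p of 0.0103). With the processed signals the ratio of litter 116 became 4.73 and the mean 2.19, with an unadjusted limma p of 0.0835, both resting on that Lats2+/+ signal at background.

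Read against the whole array, no kept probe had an adjusted p below 0.05 by limma, which is 0% of the 22642 tested, and 0 members did. The lowest adjusted p of any probe was 0.634. At an unadjusted p below 0.05, 1 of 6 kept members was higher and 0 were lower, against 3.56% of kept probes higher and 3.29% lower. With a 2-fold difference required as well, Hes1 again counted, against 0.636% of kept probes higher and 0.199% lower. Hes1 and Notch3 were 2 of 6 members with a ratio above 0 in all 3 litters, a property of 15% of kept probes, while 0 members and 14.8% of kept probes were below 0 in all 3.

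Hey1, a target in the HEY family of repressors, differed in litter 121 and little elsewhere. Its signals were 6.86 and 6.76 in the Lats2-/- and Lats2+/+ extracts of litter 112, 6.16 and 6.22 in litter 116 and 7.66 and 6.61 in litter 121. Neither extract of litter 116 was above background. The ratios were 0.10, -0.06 and 1.06, a mean of 0.37 ± 0.60 (SD, n = 3; limma adjusted p = 0.794), and without litter 121 the mean was 0.02. The 4 arrays of litter 121 gave 0.97 to 1.12, so the difference recurred on repeated arrays of those 2 extracts. Hey2 and Heyl, the other HEY repressors and known from heart and vessel development, were above background on 0 of 8 arrays in either channel, Heyl with both of its probes. Their ratios stayed between -0.08 and 0.08, values that describe background in both genotypes. With the processed signals Hey2 read -0.10, 0.08 and -0.55, again from signals at background.

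**Figure D2:**
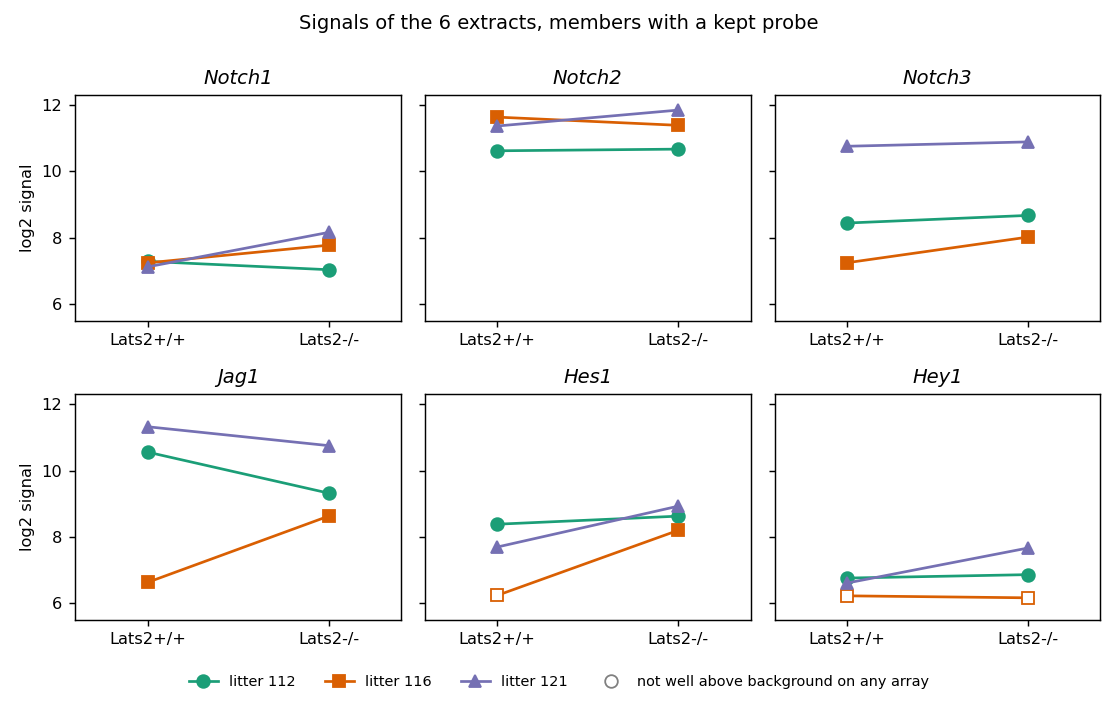
Log2 signal (y axis) of the Lats2+/+ and Lats2-/- extracts (x axis) for the 6 genes with a kept probe, with a line joining the extracts of a litter; open symbols were not well above background on any array. Hes1 lines slope up in each litter and converge on the Lats2-/- side. Jag1 lines slope down in litters 112 and 121 and up in litter 116. Notch1 lines fan out from Lats2+/+ extracts within 0.17 of each other.

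By role, the receptors had a median ratio of 0.05 in litter 112, 0.53 in litter 116 and 0.48 in litter 121. The kept targets, Hes1 and Hey1, had medians of 0.17, 0.95 and 1.14, and the single kept ligand the -1.24, 1.997 and -0.57 already given. These medians rest on 3, 2 and 1 genes, and single members depart from them: Notch3 was closest to 0 in litter 121, and Notch2 and Hey1 were lowest in litter 116. Over the 6 kept members the median of the means was 0.37, and 6 of 6 means were above 0, beside a median of 0.01 and 51.3% of means above 0 over all kept probes. The count depends on the probes that stand for Jag1 and Notch2, since the second probe of Jag1 had a mean of -0.23 and the third of Notch2 one of -0.0099. Of those 6 genes, 4 were higher in litter 112, 4 in litter 116 and 5 in litter 121. Hey1 in litter 116 is counted there with a ratio at background.

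The level of several members differed more between litters than between genotypes. Among the Lats2+/+ extracts, Notch3 covered 3.51 on the log2 scale, more than 99.2% of kept probes, and Hes1 covered 2.15, more than 96.8%. The low end of Hes1 was the extract of litter 116, which was not above background. Its Lats2-/- extracts covered 0.73, less than its mean ratio of 1.15. For Notch2 the range of the Lats2+/+ extracts was 1.02, and for Hey1 it was 0.54, close to the median of 0.47. Litters 112 and 116 shared one slide and litter 121 had another, so litter 121 cannot be told apart from its slide. Within the first slide the medians were 0.14 for receptors and 0.56 for targets, and on the second they were 0.48 and 1.14, while the single kept ligand, Jag1, had 0.38 and -0.57.

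Markers of cell types were read in the same extracts, since the cultures' makeup could differ. In bulk RNA, fewer cells of a type and less RNA per cell cannot be told apart. All 10 fibroblast markers were kept, and their summed level on the log2 scale was 17.73 to 18.93 in Lats2-/- and 17.52 to 18.64 in Lats2+/+ extracts, with differences of -0.04, 1.41 and -0.81 by litter. The brightest markers carry such a sum, and single ones, named here and below after their values were seen, differed far more. The matrix proteoglycan genes Dcn and Lum had ratios of 6.22 and 5.48 in litter 116, and Dcn also 3.26 in litter 112. Vim went the other way in litter 116, with -1.19, as did Col1a1 and Thy1 in litter 112, with -0.50 and -0.38. In litter 121 the receptor gene Pdgfra had -4.96, with 2 of 4 Lats2-/- arrays above background, the surface marker Thy1 -3.66 and the collagen gene Col3a1 -3.42. Of 8 smooth muscle and pericyte markers 6 were kept, with a summed level of 16.85 to 18.11 and 14.20 to 17.69 and differences of -0.40, 3.28 and 0.42. In litter 116, in which Jag1 and Hes1 had their highest ratios, both sums were thus higher in the Lats2-/- extract. The pericyte proteoglycan gene Cspg4 was lower in all 3 litters, with ratios of -2.10, -4.14 and -3.94 (limma adjusted p = 0.692). The other kept ones, named after their values were seen, changed sign between litters. Cnn1 had -2.32, 1.51 and 1.63, and Mcam -1.30, 1.85 and 2.35, both with a Lats2+/+ signal at background in litter 116. Tagln had -0.26, 4.10 and 0.12, Acta2 -0.43, 3.16 and 0.49, and Myh11 -0.07, 0.07 and 0.02. Of 6 neural markers 3 were kept, with differences of -0.55, 0.42 and 2.25, the last in litter 121, in which Notch1 and Hey1 were highest and the intermediate filament gene Nes had a ratio of 4.10. Summed levels were 10.04 to 12.81 in Lats2-/- and 9.92 to 10.59 in Lats2+/+ extracts. Skeletal myoblast markers were kept in 0 of 4 cases, and Pax7, named after its values were seen, had in litter 116 a log2 signal of 9.26 in Lats2+/+, above background on both arrays, and of 6.26 in Lats2-/-, above it on neither. Of 6 endothelial markers 1 was kept, and the defining Pecam1 and Cdh5 were above background on 0 arrays. The kept one, Tek, had ratios of -0.00, 0.02 and 0.16, and Kdr was above background in litter 121 on 4 of 4 arrays for Lats2-/- and 0 of 4 for Lats2+/+, with a ratio of 0.50 there; both are named after their values were seen. Haematopoietic and epithelial markers were kept in 2 of 5 and 0 of 4 cases, and their summed levels differed by at most 0.10 and 0.39. Single ones differed more, among them Cd68, with ratios of 0.36, -0.32 and -0.16, and Cdh1, with 1.09 in litter 121. Cdh1 was above background there on 4 of 4 arrays for Lats2-/- and 0 of 4 for Lats2+/+. In litter 116 Krt8 had -0.30 and Krt18 -0.40, each above background on both arrays for Lats2+/+ and on neither for Lats2-/-. These were likewise named after their values were seen. The part of any of these in the members' ratios was not tested.

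Other genes of the pathway were taken from a list of 48, of which 47 were on the array and 35 were kept. Of the 35, 2 were higher and 1 was lower at an unadjusted limma p below 0.05, and 0 at an adjusted p, against the 3.56% and 3.29% of all kept probes given above. By mean ratio 25 were higher and 10 lower, with a median of 0.08, beside 11615 higher, 11027 lower and a median of 0.01 over all kept probes. Both of the higher genes were of the nuclear complex, where 9 of 10 genes were kept. Maml2, a Mastermind co-activator, had ratios of 0.15, 0.68 and 0.76, but its 2 dimmer probes averaged 0.10 and 0.12. Cir1, an RBPJ-binding co-repressor whose probes were matched by accession, had 0.40, 0.24 and 0.23, with 0.25 for its second probe. Each had an adjusted limma p of 0.711.

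Rbpj, the DNA-binding partner of the Notch intracellular domain, had the lowest mean of the list. Its ratios of 0.22, -0.94 and -2.11 gave a mean of -0.94 ± 1.16 (SD, n = 3; limma adjusted p = 0.750). The Lats2-/- extract was lower in litters 116 and 121, and slightly higher in litter 112, and the mean without litter 121 was -0.36. In litter 121 Hes1 was 2.35-fold higher, and in litter 116 its fold was at least 3.90. Any relation between the ratios of Rbpj and Hes1 was not tested. The probe is the single one for Rbpj on the array.

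Among the other receptors and ligands 2 of 6 were kept. Dlk1, a non-canonical Delta-like protein of preadipocytes, had the widest litter difference of the list, with ratios of 4.43, 3.44 and -4.29. Its mean of 1.20, or 1.04 with a second probe, became 3.94 without litter 121. Dlk2, its relative, named Egfl9 in the files, was lower in all 3 litters, with ratios of -0.18, -0.82 and -0.46 (limma adjusted p = 0.711, below 0.05 before adjustment). Notch4, Dll3, Dll4 and Dner were not kept. The 7 kept genes of receptor cleavage had means from -0.12 for the presenilin gene Psen2 to 0.18 for Adam17, an ADAM protease. The 7 kept genes of ligand endocytosis and glycosylation ran from -0.11 for the ubiquitin ligase Mib1 to 0.34 for Neurl1a, named Neurl in the files, a ligase of the Neuralized family. Receptor turnover and modulator genes, 8 of 10 kept, ran from -0.38 for Nle1 to 0.26 for Dtx3, a Deltex family gene. Of the other HES genes, Hes6 averaged 0.43 and Hes2 -0.13, and the remaining 3 were not kept. None of those named in the last 4 sentences passed an unadjusted p of 0.05 by limma.

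**Figure D3:**
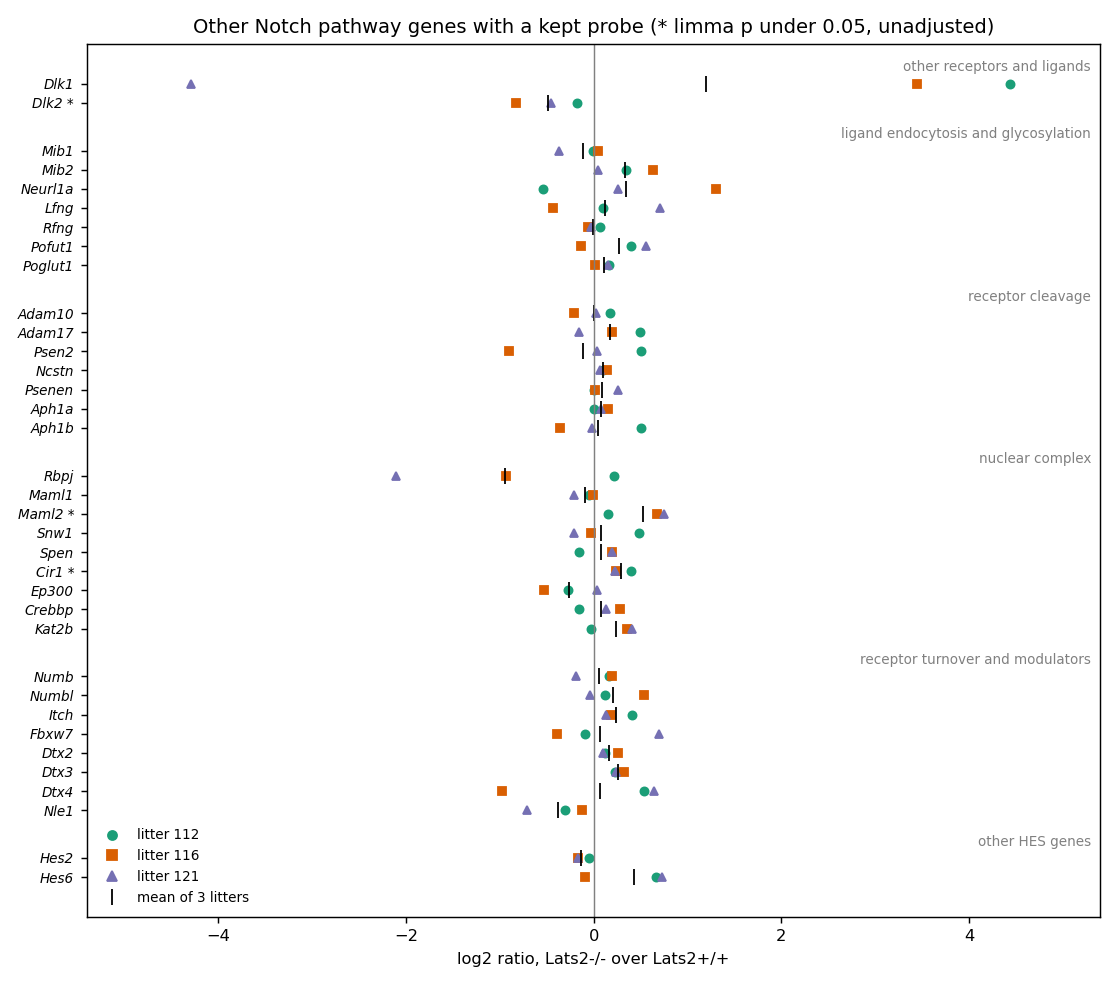
Log2 ratio of Lats2-/- over Lats2+/+ (x axis) for the 35 kept genes of the wider pathway list (y axis, by function), one symbol per litter and a bar for the mean. Most genes lie near 0, Rbpj reaches -2.11 in litter 121, and Dlk1 has ratios of 4.43 and 3.44 in litters 112 and 116 and of -4.29 in litter 121.

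When the processing was varied, the mean of Hes1 lay between 0.74, without litter 116, and 2.19, with the deposited values, the upper end resting on a Lats2+/+ signal of litter 116 at background. Its unadjusted limma p ran from 0.00139, with the 8 arrays as units, to 0.119 without litter 121, and was 0.148 by the methods' test. The means of Notch1 ran from 0.14 to 1.04, of Notch3 from 0.13 to 0.50 and of Hey1 from 0.02 to 1.06, the values of litter 121 taken alone included. Notch2 was below 0 without litter 121, and Jag1 took either sign. Several settings change the test and not the mean, and leaving out a litter cannot turn the sign of Hes1 or Notch3, which were above 0 in each.

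**Figure D4:**
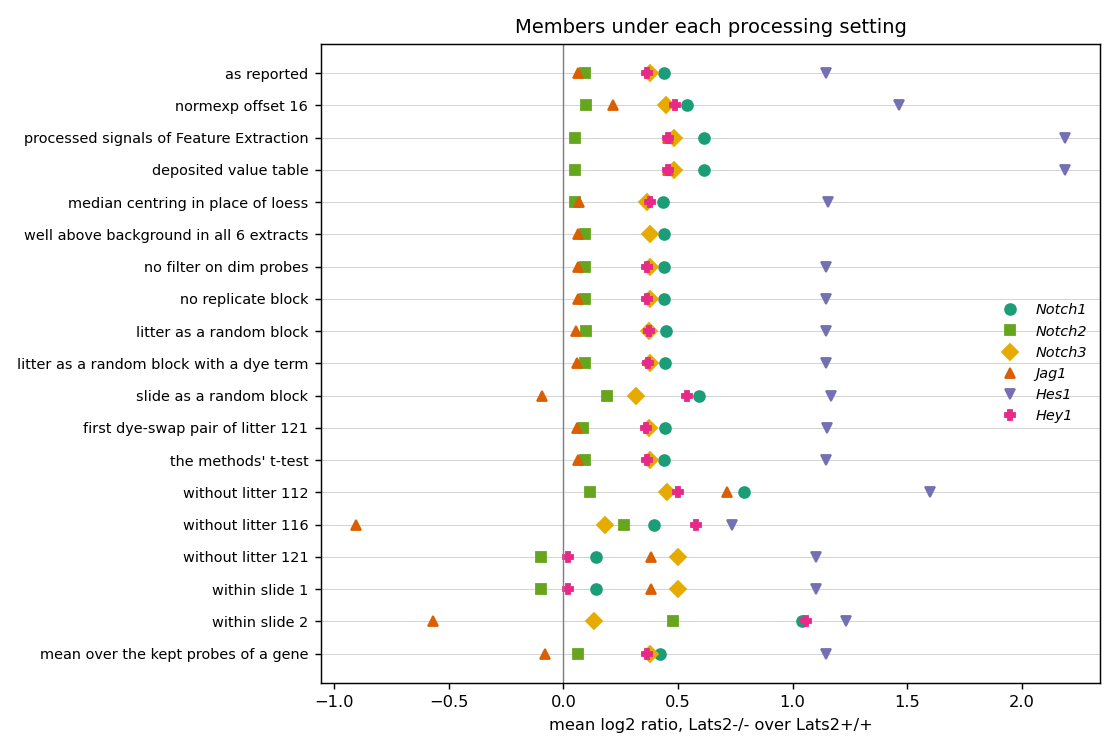
Mean log2 ratio of Lats2-/- over Lats2+/+ (x axis) of the 6 members with a kept probe under each processing setting (y axis), one symbol per gene. Hes1 has the highest mean in each setting that kept its probe, while Jag1 ranges from -0.90 to 0.71 with the litter left out.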

How the data were processed

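RNA of Lats2-/- and Lats2+/+ MEFs from 3 litters was labelled with Cy3 or Cy5 and hybridised in pairs on 8 Agilent whole mouse genome arrays of design 14868. Per the file headers, spot intensities were extracted with Agilent Feature Extraction 10.7.3.1, and the submitters' processing notes name version 10.5.1.1. The deposited scanner files give intensity per spot and colour, and the deposited value table holds log10 ratios that match the scanner's within 0.005 once the sign is turned on dye-swapped arrays.

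From mean signals and median local background, normexp with an offset of 50 was applied, control spots and 860 outlier spots were left out, and loess was run within each array (limma 3.58.1, R 4.3.3). Ratios were turned to Lats2-/- over Lats2+/+, repeat spots averaged, dye orientations averaged per litter, and the 3 litter values of 22642 kept probes tested against 0 with limma, two-sided, with Benjamini-Hochberg adjustment over those probes. The fit was tested on simulated data. Signals per extract are log2 values after Aquantile scaling. Precision is limited by 3 litters. No member spot was saturated. The offset pulls ratios of dim probes towards 0.

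The members and lists were chosen with earlier results of these data known. All 10 members are named, and of the wider list the genes with an unadjusted p below 0.05 and the highest and lowest mean of each group. A few genes were left out of that list and are not reported here. Marker lists are given as counts and ranges. Named besides are Cspg4, Pecam1, Cdh5 and some single markers picked after their values were seen, mostly ones that differed widely. Probe coordinates are those of the files (mm8), without annotation of exons or UTRs here. Alternatives covered the offset, the processed signals, the deposited values, median centring, the filter on dim probes, the pairing, litter or slide as a random block, a dye term, the first pair of litter 121, the methods' t-test, each litter left out, and the mean over a gene's probes.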

Additional observations from a re-analysis of the deposited data

How the results depend on the processing

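No member passed an adjusted p of 0.05 under any alternative run. The number of members at an unadjusted p below 0.05, 1 as reported, became 0 with the processed signals, the deposited value table, the filter on all 6 extracts (which drops Hes1 and Hey1), no filter, no replicate block, the methods' t-test and within slide 1, and 3 with slide as a random block (Notch1, Hes1 and Hey1). It was 0 to 2 with a litter left out, 2 without litter 112 and 0 without litter 121, and the 1 member without litter 116 was Jag1 in place of Hes1. The number that was also at least 2-fold, 1 as reported, became 0 under the same settings other than slide as a random block, and was 0 to 1 with a litter left out, 0 without litter 116 or 121. The median of the targets moved from 0.76 to 1.32 with the processed signals and to 1.32 with the value table. Jag1 changed sign with slide as a random block (-0.095), within slide 2 (-0.57), as a mean over its 2 probes (-0.082) and without litter 116. Its range was -0.90 to 0.71 when single litters were dropped. Notch2 changed sign without litter 121 (-0.10), with a range of -0.10 to 0.27 when single litters were dropped. The setting within slide 1 is the same fit as that without litter 121, and within slide 2 is litter 121 taken alone.

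Over all kept probes, those at an adjusted p below 0.05, 0 as reported, numbered 341 with litter as a random block, 203 with a dye term added and 717 with slide as a random block, fits which take the 8 arrays as the units. Those at an unadjusted p below 0.05, 1549 as reported, numbered 2998, 2852 and 4030 in these fits, 554 with no replicate block and, of all 41174 gene probes, 2623 with no filter. Those also at least 2-fold, 189 as reported, numbered 414, 399 and 441 in these fits, 305 with an offset of 16, 550 with the processed signals, 545 with the value table, 112 with no replicate block, 71 with the methods' t-test, 373 within slide 1 and 260 to 373 when single litters were dropped (373 without litter 121, 352 without litter 112). Beyond these, the causes of the changes were not tested. Signal over background limits Hey1, Jag2, Dll1, Hey2 and Heyl and the Lats2+/+ level of Hes1 in litter 116.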
